A study of Mus musculus with 4 samples.

Results

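The leukocytes of the mouse hindpaw were examined for 10 genes of the transforming growth factor β (TGF-β) pathway. They were the ligands Tgfb1 and Tgfb3, the receptor chains Tgfbr1 and Tgfbr2, the signal transducers Smad2 and Smad3, and the inhibitors and corepressors Smad7, Skil, Pmepa1 and Tgif1. They were chosen by symbol, as 10 of the 32285 genes counted in every library. The selection rule used no expression value, but it was made with earlier results of these data known. Their levels are given as UMIs (unique molecular identifiers, each marking 1 captured mRNA molecule) per 1000000 UMIs of the same cells, abbreviated CPM, and as the percentage of cell barcodes with at least 1 UMI.

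The libraries came from CD45+ cells sorted from the hindpaws of male mice at 12 or 21 weeks of age. Diabetic mice (DB) were Lepr db/db on a C57BLKS/J background, which are homozygous for the db allele of the leptin receptor in all tissues and become obese and hyperglycemic. The controls (WT) were Lepr WT/WT littermates, so all groups shared sex, tissue, digestion and sort, and the comparison asks how the leukocytes of a diabetic foot differ from those of a lean one. Each condition (WT or DB, at 12 or 21 weeks) was represented by 1 library pooled from several mice, so differences between conditions have counting error and no replicate error, and no test was made of them. A run of 4 values is given throughout in library order, which is WT then DB at 12 weeks followed by WT then DB at 21 weeks.

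TGF-β is secreted in a latent form and released by integrins. The active ligand binds the receptor chain TGFBR2, which recruits and phosphorylates TGFBR1, and TGFBR1 then phosphorylates SMAD2 and SMAD3, which enter the nucleus with SMAD4 and change transcription. The pathway restrains itself: SMAD7 blocks the receptor, SKIL and TGIF1 are nuclear corepressors of SMAD complexes, and PMEPA1 is a membrane protein that holds SMAD2 and SMAD3 away from the receptor, and several of these inhibitors are themselves induced by TGF-β. In skin the pathway is known for holding Langerhans cells and epidermal T cells in the epidermis and for the development of Foxp3+ regulatory T cells.

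The deposited tables held 5998, 7463, 8208 and 9124 barcodes in library order, with totals of 47851794, 57025899, 69626521 and 54989592 UMIs. Those with 200 or more genes and no more than 10% of UMIs from mitochondrial genes numbered 5271, 6552, 7270 and 8707, with medians of 7390, 7193.5, 8000.5 and 5355 UMIs, so 21-week-DB was the shallowest per cell. Marker genes, none of which is among the 10 genes, placed 21061 of these barcodes in 13 leukocyte classes, and each class name stands for barcodes with that marker pattern and is to be read as macrophage-like, mast-like and so on. These were 82.2%, 75.8%, 76.1% and 71.6% of the kept barcodes, and the rest showed markers of several lineages, fell between classes, matched no class or were stromal, keratinocyte or endothelial. Library and age had a technical component: the file headers named Cell Ranger 5.0.0 at 12 weeks and version 6.0.0 at 21 weeks, so software version and age cannot be told apart. The 21-week-WT and 21-week-DB libraries shared 146 barcode sequences, the 12-week libraries shared 38 and the other pairs 5 to 18. Leaving shared barcodes out kept the call of 521 single values and changed that of 1. The share of UMIs estimated to be ambient RNA, released by other cells, had a median over classes of 2.31% to 3.38% per library and reached 10.5% in the monocytes of 21-week-DB.

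At least 20 barcodes in every library were found for 11 classes: macrophages, monocytes, type 2 conventional dendritic cells (cDC2), mast cells, neutrophils, B cells, dermal γδ T cells, dendritic epidermal T cells (DETC), αβ T cells, type 2 innate lymphoid cells (ILC2) and natural killer (NK) cells. Each was compared with the mean of the other 10 on UMI sums, with the library as a block. The 4 libraries thus served as the replicates of a difference between classes. The p-values measure the spread that remains after the block, estimated for each gene over all 11 classes together. They do not measure the spread of a single class over the 4 libraries. Of 110 combinations of gene and class, 36 were higher (32.7%, against 27.3% over all 11475 genes tested) and 27 lower (24.5%, against 19.5%) at an adjusted p under 0.05. These shares were near those of all genes and were not compared by a test.

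**Figure D1:**
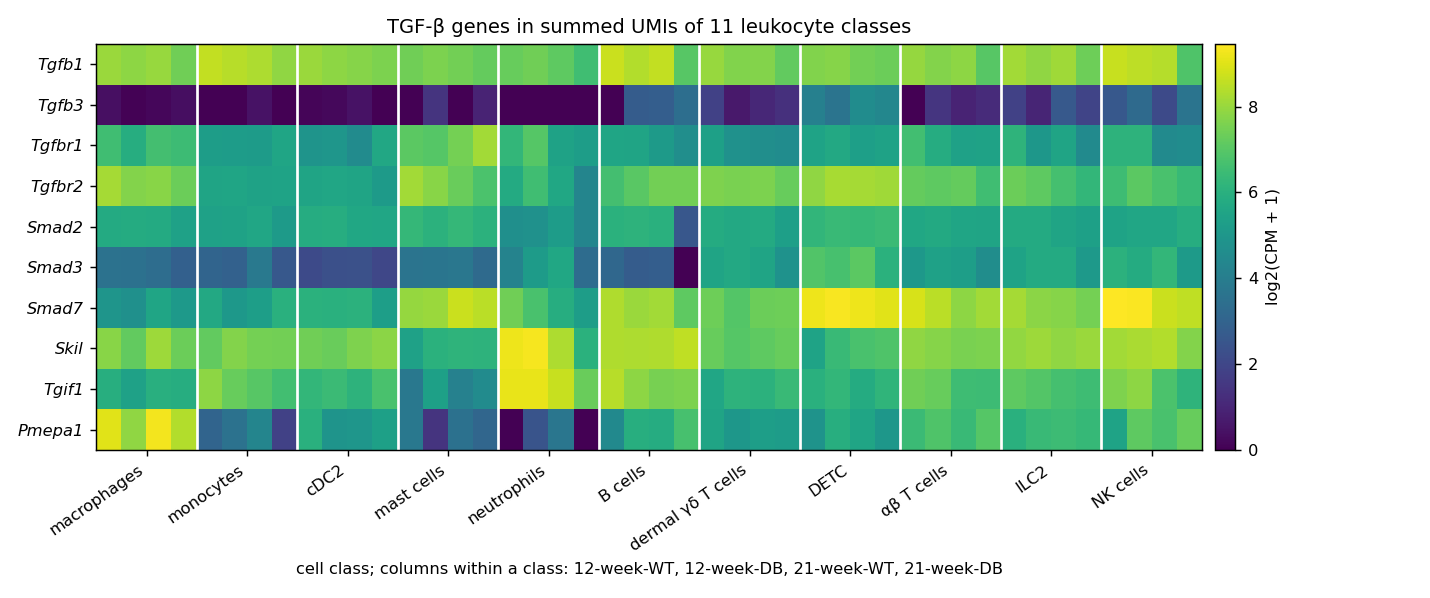
Heat map of the level of each gene, as log2(CPM + 1), in 11 leukocyte classes, with the 4 libraries as the columns of each class, in library order. Pmepa1 is brightest in macrophages, Smad7 in DETC and NK cells, Skil and Tgif1 in neutrophils, Tgfb1 is bright in every class, and Tgfb3 is at or near 0 in most.

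Tgfb1, the main TGF-β ligand of leukocytes (chromosome 7, 25687002 to 25705077, plus strand, GRCm38), was made by every class. The class means ran from 319 ± 64 CPM (SD over 4 libraries, which include the spread between conditions) in monocytes to 137 CPM in neutrophils, a 2.33-fold span and the narrowest of the 9 genes with UMIs in every class. B cells had 316 ± 131 CPM, NK cells 306 ± 129 CPM and macrophages 228 ± 41 CPM. Of the 10 pairs of neighbours in this order, 1 differed beyond its spread, cDC2 over αβ T cells (adjusted p = 0.0214, edgeR quasi-likelihood). Against the mean of the other classes, Tgfb1 was higher in monocytes by 0.75 ± 0.12 on the log2 scale (SE; adjusted p = 7.87e-07), and this call held under all 13 alternatives. It was also higher in B cells, by 0.52 ± 0.13 (adjusted p = 7.09e-04), but not without the 12-week-WT library (or without 21-week-WT), where the adjusted p reached 0.0888. The NK cell call, 0.37 ± 0.13 (adjusted p = 0.0384), was kept by 7 of 13 alternatives, and the lower calls in mast cells, DETC, dermal γδ T cells and neutrophils by 12, 8, 5 and 4.

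Tgfb3, another ligand (chromosome 12, 86056745 to 86079041, minus strand), was close to absent from the leukocytes. It had 181 UMIs in 21061 barcodes, of which 61 were in DETC, 37 in ILC2, 26 in dermal γδ T cells, 15 in αβ T cells and 12 in the 6645 macrophages. Neutrophils had 0 of 941872 UMIs, which allows up to 3.19 CPM. The highest mean was in DETC, the γδ T cells of the epidermis, where it had 10, 28, 7 and 16 UMIs in library order, or 16.4, 11.4, 23.0 and 19.7 CPM. All 4 libraries showed it, and Tgfb3 was higher in DETC than in the mean of the other classes (adjusted p = 2.29e-11), with the call kept by all 12 alternatives that gave a value. It was carried by 51 of 772 DETC barcodes (6.61%, at a median depth of 5100 UMIs in 12-week-WT), against 12 of 6645 macrophages (0.181%, at a median of 8635.5 UMIs). None of the 10 neighbouring pairs in the order differed, DETC over NK cells included (adjusted p = 0.0742), and the highest NK library (11.6 CPM) overlapped the lowest DETC library (11.4 CPM). No fold is given because several classes were at 0 in some libraries. Keratinocyte markers, with 2, 6, 2 and 4 of 6 detected, came to 58.9, 62.9, 46.0 and 32.0 CPM in DETC in library order. In dermal γδ T cells they came to 21.2, 12.5, 12.2 and 13.5 CPM. The part of keratinocyte RNA in the Tgfb3 level of DETC was not tested. Tgfb3 was also called higher in ILC2, NK cells and B cells (adjusted p = 0.00631, 0.0114 and 0.0263), from 37, 8 and 9 UMIs.

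The receptor chains were ordered differently over the classes. Tgfbr1, the signalling chain (chromosome 4, 47353222 to 47414931, plus strand), was highest in mast cells, at 134, 125, 179 and 282 CPM in library order. Macrophages followed with 92.9, 58.9, 98.7 and 89.6 CPM, so all 4 mast cell values lay above all 4 macrophage values. Mast cells exceeded macrophages, the next class (adjusted p = 5.17e-04), and exceeded the mean of the others by 1.95 ± 0.20 (log2, SE; adjusted p = 4.99e-11), under all 13 alternatives. The macrophage excess of 0.75 ± 0.18 (adjusted p = 3.48e-04) was lost only without 21-week-WT (adjusted p = 0.0691). Dermal γδ T cells were lowest, with 28.6 CPM on average, 1.11 ± 0.23 lower on the log2 scale than the others (adjusted p = 8.18e-05).

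Tgfbr2, the ligand-binding chain (chromosome 9, 116084293 to 116175360, minus strand), was highest in DETC at 236, 300.4, 289 and 277 CPM in library order. In macrophages it had 291, 210, 220 and 161 CPM, and the ranges of these classes overlapped. Both stood above the mean of the other classes, DETC by 1.29 ± 0.13 (adjusted p = 2.47e-11) and macrophages by 0.98 ± 0.12 (adjusted p = 1.19e-09), as did mast cells by 0.66 ± 0.14 (adjusted p = 1.03e-04) and dermal γδ T cells by 0.60 ± 0.12 (adjusted p = 9.92e-05), each under all 13 alternatives. The lowest means were 43.1 CPM in cDC2 and 44.3 CPM in monocytes, with log2 differences of -1.40 ± 0.15 (adjusted p = 7.66e-11) and -1.32 ± 0.17 (adjusted p = 1.80e-08). None of the 10 neighbouring pairs in the order differed. Macrophages and mast cells were thus the classes high for both chains, and cDC2 were low for both, although the cDC2 call for Tgfbr1 (-0.62 ± 0.21, adjusted p = 0.012) was kept by 10 of 13 alternatives.

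Smad2 and Smad3 encode the paired transducers of the pathway, and they were spread differently. Smad2 was nearly even: its class means ran from 80.8 CPM in DETC to 26.7 CPM in neutrophils, none of the neighbouring pairs differed, and the calls were DETC higher by 0.64 ± 0.13 (adjusted p = 4.82e-05) and mast cells higher by 0.47 ± 0.13 (adjusted p = 0.00242), the latter lost when barcodes were thinned to 2000 UMIs. Smad3 (chromosome 9, 63646767 to 63757994, minus strand) was highest in T cells and innate lymphocytes. DETC had 116, 103, 135 and 64.1 CPM in library order, and cDC2 had 3.41, 3.94, 4.11 and 3.08 CPM, so the ranges did not overlap. DETC exceeded the mean of the others by 2.42 ± 0.12 (adjusted p = 1.74e-21), followed by NK cells at 1.60 ± 0.17, ILC2 at 1.25 ± 0.11, dermal γδ T cells at 1.02 ± 0.10 and αβ T cells at 0.69 ± 0.11. Macrophages, monocytes, mast cells, B cells and cDC2 were all lower, by 1.29, 1.10, 1.0, 1.94 and 2.61 on the log2 scale. These 10 calls held under all 13 alternatives, with adjusted p of at most 0.0219 in each. Neutrophils were higher by 0.96 ± 0.25 (adjusted p = 0.00343), a call lost without 21-week-WT and with clusters in place of gates (adjusted p up to 0.378). The steps in the order that exceeded the spread were 2, DETC over NK cells (adjusted p = 0.00142) and neutrophils over mast cells (adjusted p = 8.50e-06). B cells were the lymphocytes on the low side of Smad3, with a mean of 4.92 CPM.

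Smad7, the inhibitor that acts at the receptor, was highest in DETC and NK cells and had its lowest mean in macrophages. DETC had 593, 659.7, 595 and 524 CPM in library order, and macrophages had 29.4, 26.2, 45.7 and 33.8 CPM. The lowest DETC library was far above the highest macrophage library. DETC (1.91 ± 0.16, adjusted p = 5.80e-14), NK cells (1.73 ± 0.17, adjusted p = 9.30e-11), αβ T cells (0.98 ± 0.16) and mast cells (0.97 ± 0.17) were higher than the mean of the others, and macrophages (-2.55 ± 0.21, adjusted p = 7.70e-14), monocytes (-1.85 ± 0.23) and cDC2 (-1.49 ± 0.20) were lower, each under all 13 alternatives. At least 1 UMI of Smad7 was found in 72.5% to 85.7% of DETC barcodes and in 16.0% to 28.7% of macrophage barcodes, although the macrophages were deeper. After thinning to 2000 UMIs per barcode these ranges were 57.9% to 61.5% and 4.4% to 7.12%. Dermal γδ T cells, with 152 ± 21.5 CPM, did not pass the test (-0.25 ± 0.18, adjusted p = 0.255). The B cell (0.64 ± 0.19) and ILC2 (0.43 ± 0.17) calls were less steady, kept by 12 and 6 of 13 alternatives.

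Pmepa1, the membrane-bound inhibitor (chromosome 2, 173224458 to 173276533, minus strand), was highest in macrophages, the class with the lowest mean of Smad7. Macrophages had 525, 235, 618 and 326 CPM in library order. The next class, NK cells, averaged 109 CPM and αβ T cells 102 CPM, so the lowest macrophage library was above the mean of each of the other 10 classes. Macrophages exceeded the mean of the others by 3.65 ± 0.18 on the log2 scale (adjusted p = 1.59e-21) and NK cells by 2.15 (adjusted p = 1.20e-06). Pmepa1 was also higher in αβ T cells by 1.34 ± 0.23 (adjusted p = 4.86e-06), in NK cells by 1.29 ± 0.33 (adjusted p = 0.00319, lost when thinned) and in ILC2 by 1.0 ± 0.23 (adjusted p = 5.22e-04, lost with clusters in place of marker gates). Its share of positive macrophage barcodes was 50.4%, 39.1%, 60.1% and 48.3%, at median depths of 8635.5 to 10320.5 UMIs. Mast cells, at medians of 1417.5 to 2007 UMIs, had shares of 0.35% to 3.08%. The part of ambient RNA in these was not tested. With every barcode thinned to 2000 UMIs the shares were 19.6% to 38.7% in macrophages and 1.02% to 2.42% in mast cells. Neutrophils had 0, 1, 4 and 0 UMIs. Monocytes, the blood-derived relatives of macrophages, had 7.33, 10.8, 18.7 and 2.55 CPM and were 1.82 ± 0.40 lower than the mean of the others (adjusted p = 2.10e-04).

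Skil and Tgif1, the nuclear corepressors, led in neutrophils and B cells. Skil (chromosome 3, 31095058 to 31122577, plus strand) had 591, 634.3, 309.7 and 64.9 CPM in the neutrophils in library order, the last from 7 UMIs in 36 barcodes. Tgif1 (chromosome 17, 70844205 to 70853546, minus strand) had 566, 563, 401 and 157 CPM there. Both genes were lowest in the neutrophils of 21-week-DB, the library with the fewest of them. Neutrophils exceeded the mean of the others by 1.66 ± 0.20 for Skil (adjusted p = 5.42e-09) and by 2.62 ± 0.20 for Tgif1 (adjusted p = 4.88e-15), and B cells by 0.85 ± 0.19 (adjusted p = 3.82e-04) and 1.28 ± 0.19 (adjusted p = 5.27e-07), all under 13 of 13 alternatives. Mast cells were lowest for both, with means of 61.8 CPM for Skil and 23.0 CPM for Tgif1 and log2 differences of -1.85 ± 0.25 (adjusted p = 3.92e-08) and -2.48 ± 0.29 (adjusted p = 9.34e-10). DETC were low for both as well, by 1.36 ± 0.24 and 0.80 ± 0.24. Across the 44 sums of 11 classes and 4 libraries, Skil and Tgif1 were the pair of the 10 genes that ran most alike (Pearson r = 0.77), and Tgif1 and Smad2 the pair that ran most opposite (r = -0.52). These sums share libraries and classes, so the correlations describe these sums only.

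The genes most like each of the 10, among those with a mean of at least 20 CPM, are given for the same 44 sums on log2(CPM + 10). Tgif1 ran with Cxcr4, a chemokine receptor (r = 0.92), Sorl1 (0.84) and Zc3h12a (0.81), and Skil ran with Cxcr4 (0.82), Tgif1 (0.77) and Aim2 (0.75). Smad7 ran with Gem (0.90), Crem (0.88) and Slbp (0.88), of which Gem was a marker used to gate DETC. Smad3 ran with Gramd1a (0.88), Il2rb, a chain of the IL-2 and IL-15 receptors (0.88), and Zc3hav1 (0.87). Pmepa1 ran with Fam126a (0.77), Gna15 (0.76) and Ap1b1 (0.75), and Tgfbr1 with C77080 (0.75), Chst1 (0.74) and Fnip1 (0.74). Tgfbr2 ran with Zbtb4 (0.82), Stxbp5 (0.82) and Lrp6 (0.80), Tgfb1 with Eif4b (0.80), Snrpa (0.77) and Ppip5k2 (0.76), and Smad2 with Fbrsl1 (0.81), Clasp2 (0.80) and Adcy7 (0.79). Tgfb3 ran with Gm50012 (0.90), Rnf157 (0.88) and Ppm1g (0.88), but it was at or near 0 in most sums.

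Within macrophages, the hyaluronan receptor Lyve1 marks a population that sits along vessels, and it had at least 1 UMI in 67.3%, 56.4%, 59.7% and 66.8% of macrophage barcodes in library order. Lyve1+ and Lyve1- macrophages of the same library were compared as 4 pairs. Of the 9 genes tested, 2 were higher in Lyve1+ cells and 2 lower, and over all 12746 genes 12.8% were higher and 11.7% lower. Pmepa1 had 634, 319.5, 870.4 and 370.4 CPM in Lyve1+ cells and 261, 112, 142 and 214 CPM in Lyve1- cells, higher in the Lyve1+ cells of all 4 libraries. Tgfbr2 had 337, 288, 279 and 181 CPM in Lyve1+ cells and 179, 94.8, 109.5 and 112 CPM in Lyve1- cells, again higher in all 4. The differences were 1.47 ± 0.23 for Pmepa1 (log2, SE; adjusted p = 0.00203) and 1.07 ± 0.13 for Tgfbr2 (adjusted p = 6.34e-04), and both held under all 12 alternatives. The sum of 8 macrophage markers was 15514, 14134, 13560 and 13422 CPM in Lyve1+ cells and 10059, 6477, 7738 and 8293 CPM in Lyve1- cells. The sum of 8 cDC2 markers was 154, 95.6, 116 and 39.8 CPM in Lyve1+ and 430.0, 291, 426 and 189 CPM in Lyve1- cells. All 16 markers were detected in each, and the part of these differences in the results was not tested.

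Tgif1 went the other way, with 44.9, 32.4, 41.4 and 45.5 CPM in Lyve1+ cells and 97.6, 55.6, 100.3 and 93.5 CPM in Lyve1- cells, so the groups did not overlap. The difference was -1.13 ± 0.09 (adjusted p = 8.97e-05, 12 of 12 alternatives). Smad7 was lower in Lyve1+ cells by 0.50 ± 0.12 (adjusted p = 0.0187), but this was kept by 7 of 12 alternatives and in 21-week-WT it was 46.5 CPM in Lyve1+ and 44.1 CPM in Lyve1- cells. Of the 48 further genes of the TGF-β, activin and BMP pathways in the files, 39 were tested, 11 were higher and 10 lower. The largest were Ccn2, a matricellular protein and TGF-β target (4.55), Ltbp4, which holds latent TGF-β in the matrix (2.90), Inhba, the activin A subunit (-2.52), Bmp2, a bone morphogenetic protein (2.29), and Bmpr1a, a BMP receptor (2.00). Detection of Lyve1 depends on depth, and after thinning every barcode to 2000 UMIs the Pmepa1, Tgfbr2 and Tgif1 calls remained and the Smad7 call did not.

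**Figure D2:**
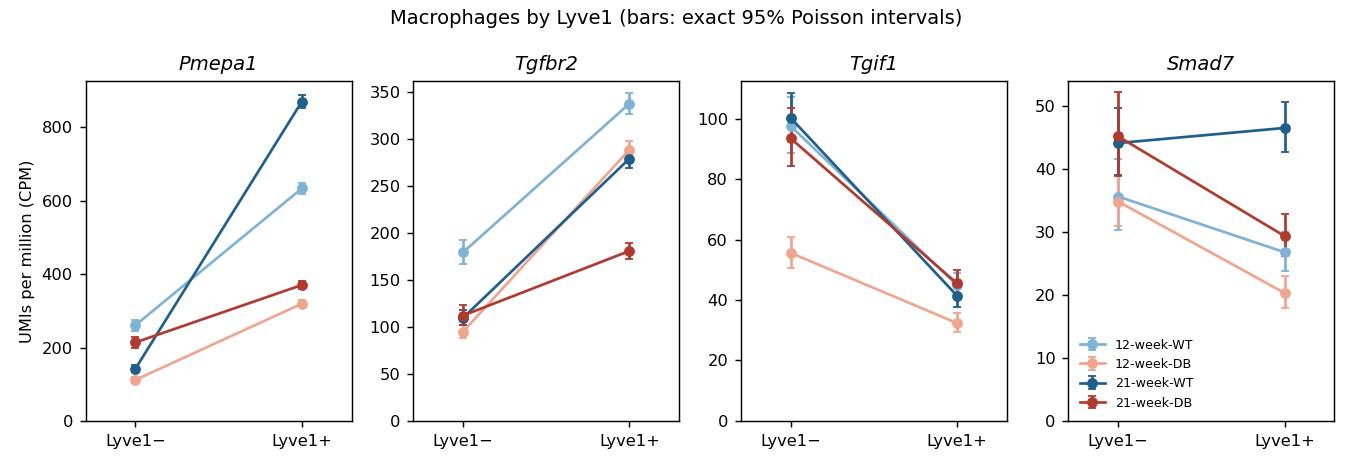
CPM of Pmepa1, Tgfbr2, Tgif1 and Smad7 in Lyve1- and Lyve1+ macrophages, 1 line for each library, with exact 95% Poisson intervals as bars that cover counting error only. Pmepa1 and Tgfbr2 lines climb and Tgif1 lines descend in all 4 libraries, while for Smad7 the 21-week-WT line is nearly flat.

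Regulatory T cells, marked by Foxp3, are the αβ T cells best known to depend on TGF-β. Foxp3 was detected in 28.8%, 27.2%, 19.7% and 30.9% of αβ T cell barcodes in library order. Of 9 genes tested between Foxp3+ and Foxp3- cells, 2 were higher and 1 lower, and over all 9191 genes 6.58% were higher and 6.71% lower. Tgfbr1 had 159, 84.9, 78.1 and 72.0 CPM in Foxp3+ cells and 76.3, 47.9, 33.1 and 31.3 CPM in Foxp3- cells. It was higher in the Foxp3+ cells of every library, by 0.98 ± 0.13 (log2, SE; adjusted p = 3.61e-05), and without the library block the adjusted p was 0.103.

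Tgfbr2 went the other way, with 142, 92.4, 99.8 and 71.3 CPM in Foxp3+ cells and 152, 151, 157 and 102.5 CPM in Foxp3- cells. It was lower in Foxp3+ cells by 0.63 ± 0.12 (adjusted p = 9.60e-04), a call lost without the library block (adjusted p up to 0.141) and when thinned. The excess of Tgif1 in Foxp3+ cells, 0.37 ± 0.11 (adjusted p = 0.0352), was kept by 5 of 12 alternatives. Of the further pathway genes, 27 were tested, 5 were higher and 4 lower. The largest were Itgb8, an integrin chain that releases latent TGF-β (3.01), Tgfbr3, a coreceptor (-2.25), Lrrc32, which presents latent TGF-β on the cell surface (1.70), Acvr2a, an activin receptor (-1.67), and Itgae, the integrin CD103 (1.37).

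**Figure D3:**
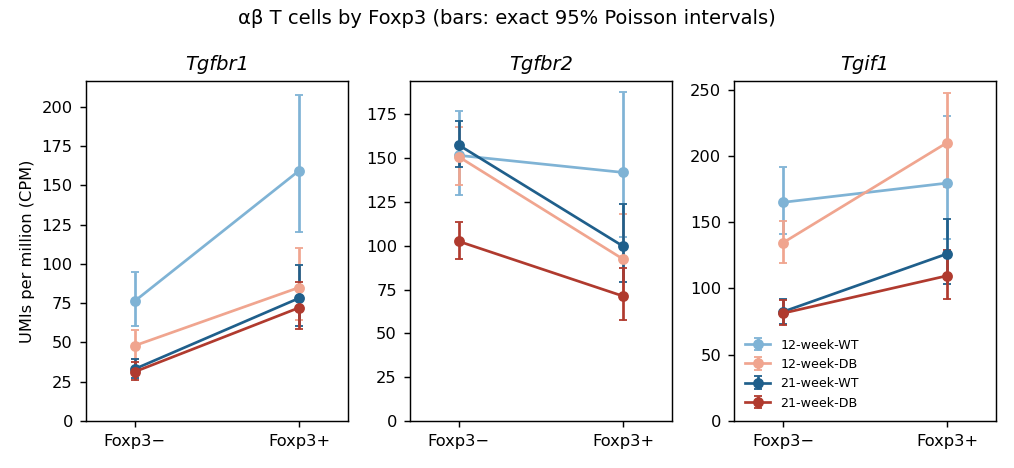
CPM of Tgfbr1, Tgfbr2 and Tgif1 in Foxp3- and Foxp3+ αβ T cells, 1 line for each library, with exact 95% Poisson intervals as bars that cover counting error only. The Tgfbr1 line climbs from Foxp3- to Foxp3+ in all 4 libraries. The Tgfbr2 line descends in all 4, but only slightly in 12-week-WT (log2 ratio -0.096, interval -0.589 to 0.374). Tgif1 climbs, with overlapping intervals in 12-week-WT.

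For DB against WT, and for 21 against 12 weeks, a difference was counted where it passed 1.5-fold with a 95% interval of the ratio clear of 1, with at least 50 UMIs in the 2 libraries together and at least 20 barcodes in each. At 12 weeks 3 of 91 combinations of gene and class were higher in DB (3.30%, against 4.61% over all genes) and 8 lower (8.79%, against 4.85%). At 21 weeks 5 of 84 were higher (5.95%, against 11.1%) and 19 lower (22.6%, against 11.4%). The combinations share 10 genes and 4 libraries, and the shares were not tested against those of all genes. These are differences between single libraries, and no p-value is given.

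Pmepa1 in macrophages had the best-counted difference. Its 4 levels rested on 8170, 5049, 11046 and 4658 UMIs in library order, at 525, 235, 618 and 326 CPM, so both DB libraries lay below both WT libraries. The log2 DB/WT ratio was -1.16 at 12 weeks (95% interval -1.21 to -1.11) and -0.92 at 21 weeks (-0.97 to -0.87). Over all genes in macrophages, 4.42% were higher and 8.56% lower in DB at 12 weeks, and 13.9% and 8.17% at 21 weeks. Over the alternatives the ratio ranged from -1.39 to -1.13 and from -1.03 to -0.49, the last with clusters in place of gates, under which it no longer passed 1.5-fold. Stromal markers in the same macrophage sums, all 6 detected in 3 libraries and 4 of 6 in 21-week-DB (Col1a1 and Lum at 0), came to 34.6, 6.94, 12.1 and 4.56 CPM in library order, and the sums of 8 cDC2 markers to 235, 175, 223 and 81.6 CPM. Pmepa1 itself had 279, 345, 211 and 251 CPM in the stromal barcodes, from 59, 55, 31 and 34 UMIs. This was below the macrophage level in 3 libraries and above it in 12-week-DB. Monocyte markers, all 7 detected in each library, came to 101, 110, 217 and 80.8 CPM in the macrophage sums. The part of stromal, cDC2 and monocyte RNA in the result was not tested.

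The Pmepa1 difference was present in Lyve1+ macrophages at both ages, with log2 ratios of -0.99 (-1.04 to -0.93) and -1.23 (-1.29 to -1.18), where 6.76% and 8.84% of all genes were lower. In Lyve1- macrophages it was -1.22 (-1.35 to -1.10) at 12 weeks and 0.59 (0.45 to 0.73) at 21 weeks, where WT had 142 CPM and DB had 214 CPM. Of all genes in Lyve1- cells, 8.73% were lower in DB at 12 weeks and 15.3% higher at 21 weeks. The sum of 7 monocyte markers in these Lyve1- barcodes was 91.7, 156, 309 and 113 CPM in library order. The part of this sum, and of the macrophage and cDC2 marker levels given above for these barcodes, was not tested. The direction at 21 weeks held under all 8 alternatives, between 0.40 and 1.39, and it passed 1.5-fold in 6. Elsewhere Pmepa1 was lower in the cDC2 of 12-week-DB (28.7 against 63.5 CPM, log2 ratio -1.14, with 3.73% of genes lower) and higher in its B cells (59.7 against 21.5 CPM, 21 and 30 UMIs, 1.47) and DETC (60.1 against 27.8 CPM, 1.11). At 21 weeks it was higher in DB B cells (0.87, 21 and 46 UMIs) and lower in DB monocytes, where 2 UMIs stood against 48 (-2.87, interval -5.96 to -0.94) and the sign turned with clusters in place of gates.

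Skil was lower in DB macrophages at both ages, at 216, 144, 266 and 159.9 CPM in library order. The log2 ratios were -0.59 (-0.66 to -0.51), kept by 5 of 9 alternatives, and -0.74 (-0.81 to -0.66), kept by all 9. As for Pmepa1, both DB libraries lay below both WT libraries. In Lyve1+ and Lyve1- macrophages the ratios were -0.59 and -0.61 at 12 weeks, and -0.99 and -0.17 at 21 weeks. The difference between the 2 fractions was not tested. In DETC at 12 weeks Skil was higher in DB, at 44.2 CPM in WT and 84.0 CPM in DB (27 and 207 UMIs, 0.93, interval 0.34 to 1.56), a difference kept by all 9 alternatives. In neutrophils Skil was 64.9 CPM in 21-week-DB and 309.7 in 21-week-WT (-2.26, -3.61 to -1.16, 7 and 102 UMIs), and Tgif1 was 157 and 401 CPM (-1.35, -2.17 to -0.61). In neutrophils at 21 weeks 22.8% of all genes were lower in DB. Skil was also lower in the NK cells of 21-week-DB (-0.65, -1.21 to -0.13, 36 and 194 UMIs), kept by 7 of 8 alternatives.

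Tgfb1 had a lower level in DB in every class compared at 21 weeks. Over all leukocyte classes together it was 265, 225, 234 and 160.2 CPM in library order. At 12 weeks the ratio was below 1 in 9 of 12 classes and none was counted. At 21 weeks it was below 1 in 11 of 11 classes, with a median log2 ratio of -0.56, and 4 were counted. B cells had 389 CPM in WT and 127 in DB (318 and 26 UMIs, -1.61, interval -2.25 to -1.03) and NK cells had 340.2 and 116 CPM (201 and 20 UMIs, -1.55, -2.29 to -0.89). In αβ T cells the levels were 231 and 128 CPM (-0.85, -1.0 to -0.71) and in ILC2 275 and 163 CPM (-0.76, -0.90 to -0.62). These 4 held under every alternative that gave a value, TMM scaling among them. Of all genes in these classes, 16.3% in B cells, 16.6% in NK cells, 13.4% in αβ T cells and 16.3% in ILC2 were lower in DB at 21 weeks, above the rate over all classes. In macrophages Tgfb1 had 253 CPM in WT and 171 in DB (4525 and 2435 UMIs), and the ratio of -0.57 (-0.64 to -0.50) was just short of 1.5-fold. In monocytes the ratio was -0.40 and not counted. In the αβ T cells the difference was counted in Foxp3- cells (-0.97) and not in Foxp3+ cells (-0.51), and the 2 were not compared by a test. The share of genes lower was 15.6% in Foxp3- and 9.45% in Foxp3+ cells. The B and NK cells of 21-week-DB were few, at 50 and 29 barcodes.

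**Figure D4:**
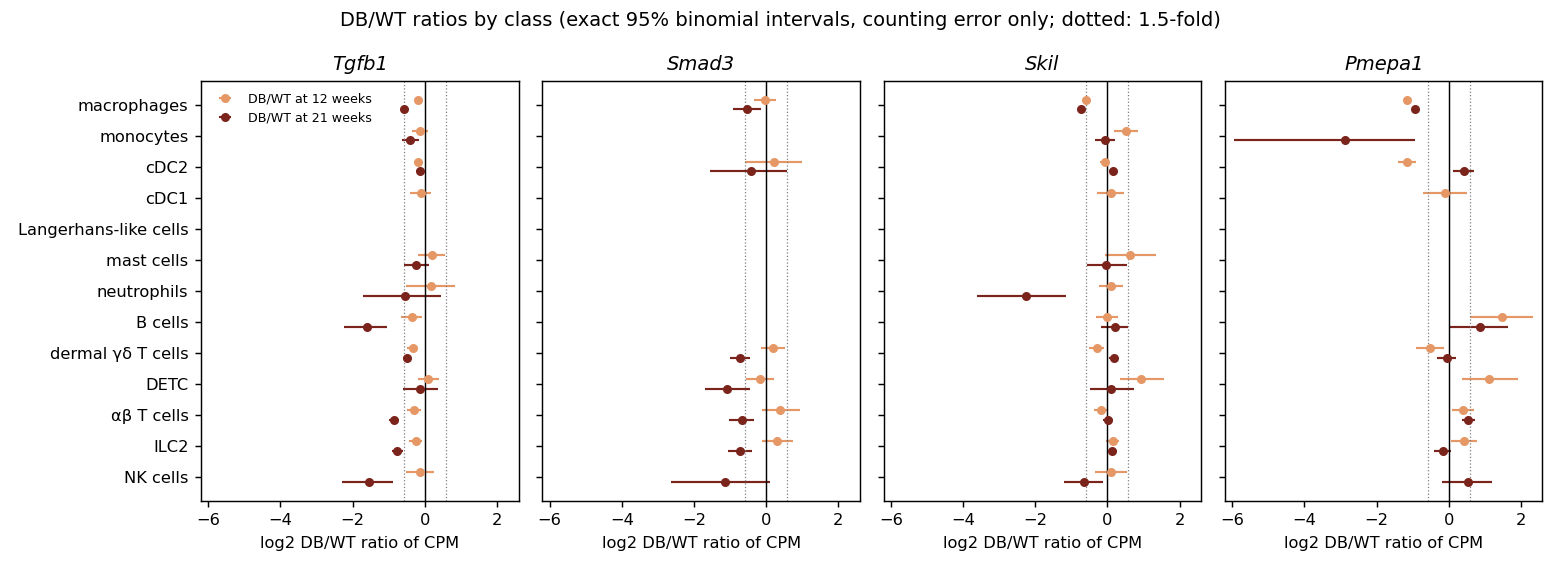
Log2 ratio of CPM in DB over WT for Tgfb1, Smad3, Skil and Pmepa1 by class, light points at 12 weeks and dark points at 21 weeks, with exact 95% binomial intervals that cover counting error only and dotted lines at 1.5-fold. At 21 weeks every Tgfb1 and Smad3 point lies left of 0, and the macrophage points of Skil and Pmepa1 lie left of 0 at both ages.

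Smad3 was lower in DB at 21 weeks in each of the 7 classes with enough UMIs, and 4 were counted. DETC had 135 CPM in 21-week-WT and 64.1 in 21-week-DB (-1.07, interval -1.69 to -0.45), and dermal γδ T cells had 45.4 and 27.5 CPM (-0.72, -0.99 to -0.45). ILC2 had 53.5 and 32.5 CPM (-0.72, -1.04 to -0.39), and αβ T cells had 38.2 and 24.0 CPM (-0.67, -1.03 to -0.32). Over all genes 11.3% in DETC and 9.61% in dermal γδ T cells were lower. The 21-week-DB level was thus below the 21-week-WT level in every T cell and ILC class. At 12 weeks none of 6 classes was counted, with ratios between -0.18 and 0.39. Over the alternatives the dermal γδ T cell call was kept by 9 of 9, those of αβ T cells and ILC2 by 7 and that of DETC by 6. The 12-week and 21-week WT levels of Smad3 were close in these classes (116 and 135 CPM in DETC, 45.2 and 45.4 in dermal γδ T cells), and 21-week-DB was the lowest of the 4 libraries in all 4 classes.

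The receptors differed class by class. At 12 weeks Tgfbr1 was lower in DB macrophages (92.9 to 58.9 CPM, log2 ratio -0.66), dermal γδ T cells (40.2 to 26.2 CPM, -0.62), αβ T cells (96.9 to 56.7 CPM, -0.77) and ILC2 (69.9 to 31.2 CPM, -1.16), each kept by all 9 alternatives. Over all genes, 2.45% in dermal γδ T cells, 2.33% in αβ T cells and 4.49% in ILC2 were lower. At 21 weeks it was lower in DB ILC2 (45.5 to 22.0 CPM, -1.05) and higher in DB cDC2 (22.9 to 49.6 CPM, 1.11) and mast cells (179 to 282 CPM, 0.66), also kept by all 9, where 10.6% of genes in cDC2 and 8.71% in mast cells were higher. The macrophage difference was no longer counted at 21 weeks, with 98.7 CPM in WT and 89.6 in DB. Tgfbr2 was counted in 1 class, the αβ T cells at 21 weeks (147 to 94.2 CPM, -0.64, kept by 7 of 9). Smad2 was counted in 1 class too, the B cells at 21 weeks, where 1 UMI stood against 51 (-3.67, interval -9.0 to -1.13). Smad7 was lower in DB cDC2 (-0.80) and B cells (-1.04) and higher in DB monocytes (0.68) at 21 weeks. Tgif1 was lower in DB B cells at 12 weeks (-0.61), lower in neutrophils and higher in cDC2 (0.66) at 21 weeks.

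Between ages, 8 of 93 combinations in WT were higher at 21 weeks (8.60%, against 4.12% over all genes) and 15 lower (16.1%, against 11.4%). In DB 5 of 86 were higher (5.81%, against 8.47%) and 22 lower (25.6%, against 18.3%). These comparisons share libraries with those of DB and WT, and the 21-week-DB library enters both, and age goes with the Cell Ranger version. In DB, Smad3 was lower at 21 weeks in all 5 classes with enough UMIs and counted in all 5: dermal γδ T cells (-0.91), αβ T cells (-0.79), ILC2 (-0.72), macrophages (-0.71) and DETC (-0.68). Genes lower at 21 weeks in DB were 18.9%, 19.5%, 25.2%, 12.5% and 19.8% of all genes in these classes. In WT it was counted in none of 7, with ratios from -0.22 to 0.30. Tgfb1 was below 1 in 11 of 12 classes in WT with none counted. In DB it was below 1 in 10 of 11, with NK cells (-1.66), B cells (-1.36) and αβ T cells (-0.68) counted. Its median log2 ratio over classes was -0.168 in WT and -0.458 in DB. Within a class, the median over all genes ran from -0.240 (cDC2) to -0.0153 (B cells) in WT. In DB that median ran from -0.256 (ILC2) to 0.0569 (Langerhans-like cells). Of all genes, 245 of 1179 in NK cells and 322 of 1584 in B cells were lower at 21 weeks in DB.

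The 8 combinations higher in WT at 21 weeks were Pmepa1 in 3 classes, Skil in 2, Smad7 in 2 and Tgfbr2 in 1. Smad7 rose in WT mast cells (248 to 414 CPM), where 299 of 3888 genes were higher. It also rose in WT macrophages (29.4 to 45.7 CPM), where 344 of 11430 genes were higher. Some other combinations were lower at 21 weeks in both genotypes. Of all genes, those lower in WT were 619 of 8174 in αβ T cells, 208 of 2940 in NK cells and 625 of 6369 in monocytes. In DB they were 1737 of 8906, 245 of 1179 and 776 of 3951 in the same classes. In mast cells they were 530 of 3888 in WT and 870 of 6029 in DB. In ILC2 they were 700 of 7297 in WT and 2242 of 8913 in DB. Tgif1 in αβ T cells was 169 CPM at 12 and 90.7 at 21 weeks in WT (-0.89), and 152 and 88.8 CPM in DB (-0.78). It was also lower in NK cells (-0.85 and -1.71) and monocytes (-0.87 and -0.68). Smad7 in NK cells was 703 and 411 CPM in WT (-0.77), and 668 and 372 CPM in DB (-0.85), whereas in αβ T cells it was counted in WT alone, at 476 and 232 CPM (-1.04), with 355 and 281 CPM in DB. Tgfbr2 was lower in mast cells (283 to 156 CPM in WT, -0.86, and 217 to 109 CPM in DB, -0.99) and ILC2 (-0.65 and -0.87). Tgfbr1 in the same mast cells was higher at 21 weeks in DB (125 to 282 CPM, 1.17), opposite in direction to Tgfbr2. Of all genes in these DB mast cells, 553 of 6029 were higher. Langerhans-like cells had enough barcodes in DB alone, 32 and 61. Pmepa1 there was 47.7 CPM at 12 weeks and 228 CPM at 21 weeks (18 and 177 UMIs, 2.26, interval 1.56 to 3.05). Of all genes there, 485 of 3222 were higher at 21 weeks. The Langerhans-like cells of the WT libraries, 13 and 11 barcodes, had 109 and 288 CPM and were not compared.

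The mix of classes differed between libraries and entered any level taken over all leukocytes. DETC were 110 of 4333 leukocyte barcodes in 12-week-WT (2.54%) and 446 of 4965 in 12-week-DB (8.98%), and mast cells were 3.89% in 21-week-WT and 20.2% in 21-week-DB. Over all leukocytes Smad3 was 15.1 CPM in 12-week-WT and 23.4 in 12-week-DB (log2 ratio 0.63), although none of the 6 classes with enough UMIs was counted. With each class held at its WT share of UMIs the ratio over the 11 classes was 0.09, and DETC gave 12.3% of all Smad3 UMIs in 12-week-WT and 25.3% in 12-week-DB. At 21 weeks the same gene had a ratio of -0.19 over the 11 classes and -0.73 at a fixed mix. Smad7 changed sign, with ratios of 0.14 and 0.39 and fixed-mix ratios of -0.21 and -0.17 at 12 and 21 weeks. Tgfb1 moved little, from -0.24 to -0.20 and from -0.57 to -0.49, and Pmepa1 went from -0.78 to -1.03 and from -0.66 to -0.72. Macrophages gave 73.3% to 87.2% of all Pmepa1 UMIs but 8.62% to 14.8% of Smad7 UMIs.

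**Figure D5:**
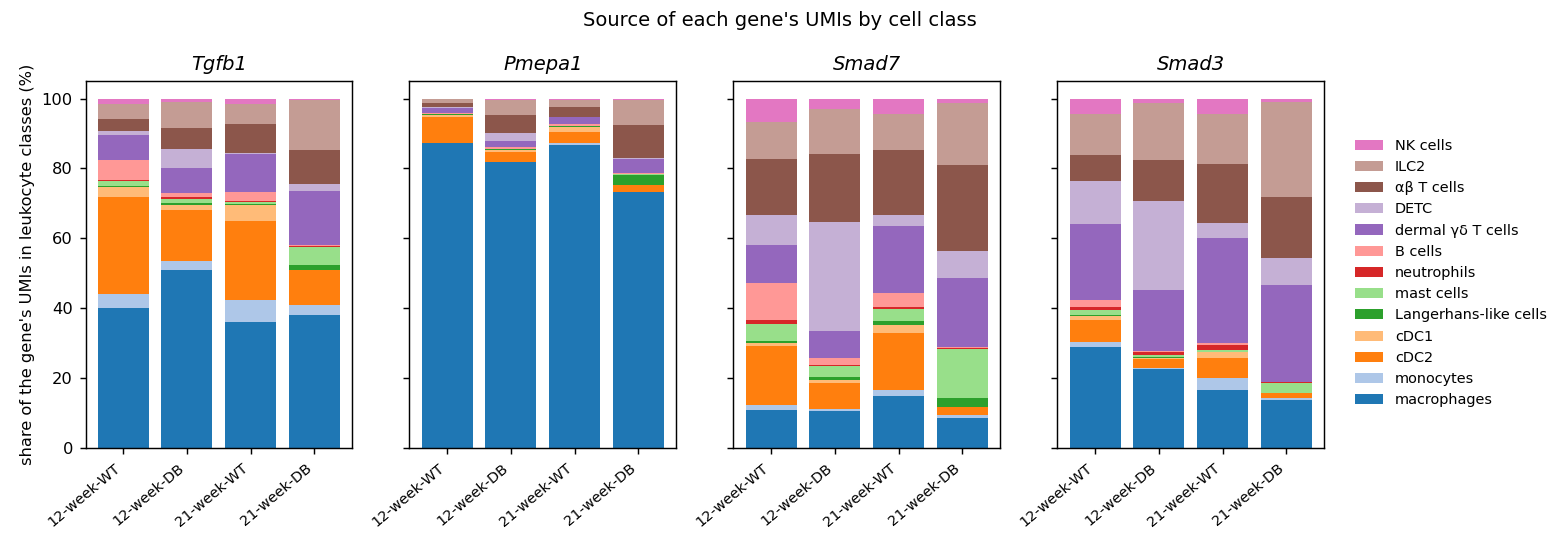
Stacked bars of the share (%) of each gene's UMIs that came from each of 13 leukocyte classes, for Tgfb1, Pmepa1, Smad7 and Smad3 in the 4 libraries. Macrophages fill most of every Pmepa1 bar, and in 12-week-DB the DETC share of Smad7 (31.2%) and Smad3 (25.3%) is larger than in the other libraries.

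The wider pathway list, 48 further ligands, receptors, regulators and targets found in the files, was described with the same rules. In the class comparison 38 were tested, and macrophages had 16 higher and 10 lower (41.9% and 23.3% of all genes), with Eng, a coreceptor, Tgfbi, a TGF-β target, Gdf15, a distant family member, and Acvrl1, a receptor, among the largest differences. DETC had 14 higher and 4 lower (26.2% and 22.2%), led by Itgae, the integrin that binds epithelial cadherin, Ldlrad4, a SMAD inhibitor related to Pmepa1, Tgfbr3, Bmpr1a and Acvr2a. ILC2 had 16 and 5 (27% and 16.2%), cDC2 17 and 11 (37.5% and 20.4%) and mast cells 13 and 9 (26.8% and 21.9%). In αβ T cells 13 were higher and 8 lower (26.3% and 15.9%), in monocytes 12 and 11 (28.1% and 17.6%), in neutrophils 9 and 5 (18.5% and 27.2%) and in dermal γδ T cells 8 and 8 (30.3% and 18.9%). B cells had 6 higher and 14 lower (23.3% and 20.5%) and NK cells 2 and 9 (13.9% and 9.93%). The median log2 difference over the list was 0.54 in DETC and -1.08 in B cells, the ends of its range.

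Between DB and WT macrophages at 12 weeks, 0 of the 34 list genes with enough UMIs were higher and 9 were lower. Over all genes 4.42% were higher and 8.56% lower. At 21 weeks 4 of 38 were higher and 11 lower, against 13.9% and 8.17% of all genes. The list's median log2 ratio was -0.30 at 12 weeks and -0.24 at 21 weeks, beside medians over all genes of 0.00289 and 0.0772. Of the 10 genes themselves, 9 had enough UMIs in macrophages, and the ratio was below 1 for 8 of them at 12 weeks and for 9 at 21 weeks, with medians of -0.47 and -0.45. At 12 weeks the lower genes included Bmp2 (39.6 to 15.3 CPM, log2 ratio -1.37), Gdf15 (-1.11), Ltbp4 (-1.04) and Mmp14 (-0.98). At 21 weeks Inhba was lower (94 to 6 UMIs, -3.64), as were Tgif2 (-1.71), Smad6 (-1.56) and Mmp14 (-1.17), and Tgfb2, the remaining ligand, was higher (23 to 130 UMIs, 1.29 to 9.11 CPM, 2.82). Tgfb2 had 13 and 16 UMIs in the macrophages of 12-week-WT and 12-week-DB, so 21-week-DB held most of its macrophage UMIs. Over all leukocytes 6 of 43 were higher and 4 lower at 12 weeks (5.87% and 6.56% of all genes), with Itgb8 at 0.81 and 4.38 CPM in WT and DB (2.43), and 7 of 44 were higher and 10 lower at 21 weeks (20.5% and 9.35%), with Ltbp1, which tethers latent TGF-β, at 15 and 113 UMIs (3.34).

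Between ages, 5 of 38 list genes were higher and 4 lower in WT macrophages (3.01% and 12% of all genes), and 7 of 35 were higher and 5 lower in DB macrophages (10.3% and 12.5%). In WT, Inhba was higher at 21 weeks (4 to 94 UMIs, 4.36), Id3 and Smad6, targets of BMP signalling, were higher (1.67 and 1.48), and Ccn2 was lower (-1.87). In DB, Tgfb2 (3.61), Id3 (2.59) and Gdf15 (1.71) were higher and Nrros, which anchors latent TGF-β on myeloid cells, was lower (-1.10). Id3 was higher at 21 weeks in both genotypes.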

How the data were processed

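CD45+ hindpaw cells were profiled with 10x Genomics 3′ v3 chemistry, 1 library for each condition. The authors aligned the reads to mm10 and deposited raw UMI counts per gene and barcode. Their processing notes name Cell Ranger 5.0.0, and the file headers name 5.0.0 for the 12-week and 6.0.0 for the 21-week libraries. The labels call the ages young and aged, and the weeks come from the study's methods.

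Barcodes needed 200 or more genes, with no more than 10% of UMIs from mitochondrial genes, and were gated by lineage markers. A barcode needed at least 3 markers of its class, and barcodes with markers of several lineages were left out in place of a doublet caller. Counts were summed per library and class. Classes, Lyve1+ against Lyve1- macrophages and Foxp3+ against Foxp3- αβ T cells were tested with edgeR 4.0.16 (R 4.3.3; glmQLFit and glmQLFTest, TMM, filterByExpr, library as a block), with Benjamini-Hochberg adjustment over all genes of a contrast and a threshold of 0.05. Standard errors were derived from the fold change and the F statistic. The tests were tried on simulated counts. Between conditions, with 1 library each, no test was made, and CPM and ratios carry exact Poisson and conditional binomial 95% intervals that cover counting error only. DESeq2 1.42.0 was an alternative to edgeR. Gene positions are those of GENCODE M21 on GRCm38, to which all 10 identifiers matched.

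The 10 genes, the markers and the 48 further pathway genes were chosen with earlier results of these data known. The text names all 10 genes, up to 5 further pathway genes per comparison by size of difference (1 gene of the list is counted but its values are not reported here), and the 3 genes most like each of the 10. A further pathway gene whose ratio turned between ages, and values quoted for a gene in a second comparison, were added after their values were seen.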

Additional observations from a re-analysis of the deposited data

Results flagged for a closer look

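In Lyve1- macrophages the DB/WT log2 ratio of Pmepa1 had opposite signs at the 2 ages, -1.22 at 12 weeks and 0.59 at 21 weeks, with both intervals clear of 0. The same 4 libraries gave ratios of 21 over 12 weeks of -0.87 in WT and 0.94 in DB. Neither difference was tested, since each rests on 1 library per condition.

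Inhba, the activin A subunit, had ratios over all leukocytes of 0.61 at 12 weeks and -0.79 at 21 weeks. The mix of classes differed between libraries, and no ratio at a fixed mix was made for Inhba. The part of the mix in these ratios, and their difference between ages, were not tested.

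Outside the leukocyte classes, Tgfb3 was found in the 92 stromal barcodes that passed the sort. Its level there was 70.8, 81.6, 68.0 and 36.9 CPM in library order, from 15, 13, 10 and 5 UMIs. A count of 0 over these barcodes would have allowed up to 4.59 CPM, and 24 of the 92 barcodes carried the gene.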

How the results depend on the processing

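Marker clusters in place of gates moved the counts past 1.5-fold most: 13 lower for DB/WT at 12 weeks in place of 8, 11 higher at 21 weeks in place of 5, 5 higher for age in WT in place of 8 and 10 higher for age in DB in place of 5. TMM scaling gave 3 higher for DB/WT at 21 weeks and 9 higher for age in DB, and a minimum of 100 UMIs gave 3 higher for age in WT. With clusters, 3 log2 ratios turned: Pmepa1 in monocytes, DB/WT at 21 weeks (0.13) and 21/12 weeks in WT (-0.37), and Smad7 in cDC2, 21/12 weeks in DB (0.27). The cause was not tested. The libraries left out in turn gave 1 to 4 of the genes lower in Lyve1+ macrophages and 1 to 2 higher in Foxp3+ cells. Without the library block, 1 gene was lower in Lyve1+ cells, and 0 were higher and 0 lower in Foxp3+ cells. Thinning to 2000 UMIs gave 1 lower in Lyve1+ cells, and 1 higher and 0 lower in Foxp3+ cells. DESeq2 and a limit of 5% mitochondrial UMIs each gave 1 higher in Foxp3+ cells. In the class comparison between 30 and 39 combinations were higher over the alternatives, and of 63 calls 50 to 63 were shared with each. Leaving out barcodes shared between libraries, a setting chosen after seeing the data, moved none of these counts by over 1.5 times.

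No paired analysis was possible because each condition had 1 library, numbered replicate 1, so no replicate block between conditions could be fitted from the numbers. A fit of DB against WT over both ages, with age as a block and 1 residual degree of freedom, was not run. Clusters gave no value for neutrophils and NK cells in some comparisons, and ambient RNA was not subtracted for all leukocytes together or within the Lyve1 and Foxp3 fractions. Classes of under 50 barcodes in 21-week-DB (neutrophils and NK cells) and genes under about 50 UMIs were limited by depth.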

Other observations

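The inhibitors differed in how many cells of a class carried them. After thinning to 2000 UMIs, Smad7 was found in 57.9% to 61.5% of DETC barcodes over the 4 libraries. Pmepa1 was found in 19.6% to 38.7% of macrophage barcodes. The thinned levels were 494 to 682 CPM for Smad7 in DETC and 222 to 540 CPM for Pmepa1 in macrophages. The levels thus differed as well as the shares. Langerhans-like barcodes were few in every library, at 13, 32, 11 and 61 in library order. After the same thinning, 23.1%, 9.38%, 45.5% and 26.2% of them had Pmepa1. Before thinning these shares were 69.2%, 25.0%, 81.8% and 60.7%.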
